A study of Danio rerio with 4 samples.

Results

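Genes of the ubiquitin-specific protease (USP) family were examined in RNA-seq libraries from the regenerating caudal fin of adult zebrafish (*Danio rerio*). The members were all counted genes whose symbol begins with usp and a number, in any case, with *usp18* left out. This gave 48 genes of 31901 counted. The naming table writes many zebrafish genes with the capital symbol of their human orthologue, so capital and lower-case symbols stand side by side, and an Ensembl ID is added where a symbol belongs to more than 1 member. One member by symbol, *usp6nl*, encodes a GTPase-activating protein of Rab proteins and not a protease.

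Tips were taken from *longfin* heterozygotes, in which a single copy of a dominant allele lengthens the fins, and from homozygous wildtype clutchmates. Both genotypes carried the sp7:eGFP transgene, a reporter of osteoblasts driven by *sp7* regulatory sequence, and both were sampled at 96 hours after amputation. The tissue taken lay distal to the labelled osteoblasts and was GFP-negative. Each library pooled tissue of 4 fins, with 2 libraries for each genotype. Beyond adult, no age is stated. Whether the pools of a genotype differed in clutch or day is not stated, so the p-values cover the spread between these samples and no more, and that spread may be technical.

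Ubiquitin is a small protein that is joined to other proteins and marks them for the proteasome, for sorting in endosomes or for a change of activity. Deubiquitinases remove it, and the USP enzymes, cysteine proteases with a shared catalytic fold, are their largest family in vertebrates. Individual USP enzymes act on histones, on DNA repair proteins, on cell cycle and clock proteins, on receptors taken up from the cell surface and on components of the Wnt, Tgf-beta and p53 pathways. Their activity is set largely at the protein level, which counts of mRNA do not measure.

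Reads assigned to genes numbered 19428186 to 23157979 per library, and the 48 USP genes together took 0.206 to 0.227% of them. Of the 2 genes with the symbol KCNH2, the channel that the study's title places at the *longfin* locus, ENSDARG00000029881 had 7 and 21 reads in *longfin* libraries against 0 and 1 in wildtype libraries. ENSDARG00000106473 had 1 and 3 reads in *longfin* libraries against 4 and 1 in wildtype libraries. The tissue label was read against marker genes. The actinotrichia genes *and1* and *and2* and the blastema genes *msx1b*, *msx3*, FGF20 and WNT5A had reads in every library. SP7, the osteoblast factor whose reporter was used to exclude cells, was present at 45.9 and 57.4 CPM (reads scaled to library size) in *longfin* tips and 45.4 and 56.1 CPM in wildtype tips. Of the other osteoblast markers, COL10A1 (ENSDARG00000054753), a collagen gene, had 1875 and 2199 CPM in *longfin* tips against 2021 and 2693 CPM in wildtype tips. COL10A1 (ENSDARG00000101535) had 129 and 167 CPM in *longfin* tips against 136 and 228 CPM in wildtype tips, *spp1* was at or below 19.5 CPM in every library, and *bglap* had 0 reads. Summed marker levels stayed at or below 1.71 CPM for muscle and 1.08 CPM for nerve and glia in every library, and *lyz*, a neutrophil gene, had 0 reads.

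Of the 48 USP genes, 44 passed the low count filter and were tested, and 1 was past the threshold of edgeR's quasi-likelihood test (an adjusted p under 0.05 over all genes), as lower in *longfin* heterozygotes. Among all 18366 genes tested, 0.403% passed, 0.294% as lower and 0.109% as higher, and with a single USP gene the family's share says little against these. The called gene was *usp2b*. The log2 fold changes of the remaining tested members, *longfin* heterozygous over wildtype, lay between -0.89 and 1.34 with a median of 0.05, and 39 of the 44 had a 95% interval that stayed within 1 on the log2 scale in both directions, against 75.0% of all tested genes. The 5 others were *usp2b*, USP2, USP13 and both genes with the symbol USP30. The width of an interval depends on the standard error, with a median of 0.118 for the 44 members and 0.168 for all tested genes. The 2 sets were not matched for expression level, so the contrast in shares is not read as a trait of the family.

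**Figure D1:**
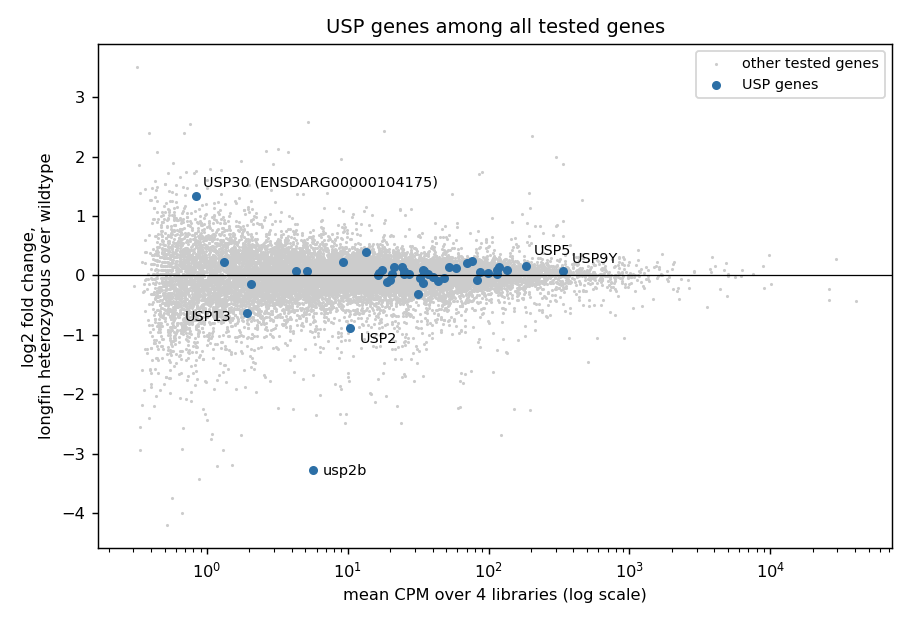
Mean CPM over the 4 libraries (x axis, log scale) and log2 fold change of longfin heterozygous over wildtype (y axis) for the 44 tested USP genes (blue) and all other tested genes (grey). USP genes lie close to 0 at every level except *usp2b* at -3.28, USP30 (ENSDARG00000104175) at 1.34, USP2 at -0.89 and USP13 at -0.64.

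The USP2 enzyme is known in mammals for stabilising cyclin D1 and the p53 ligase MDM2, and its mRNA cycles with the circadian clock in mouse tissues. The name is carried by 2 counted genes, *usp2b* (ENSDARG00000074120) and USP2 (ENSDARG00000020107). *usp2b* had 25 and 19 reads in *longfin* libraries against 216 and 216 reads in wildtype libraries. Scaled to library size this was 1.13 and 0.977 CPM in *longfin* tips against 11.7 and 9.02 CPM in wildtype tips. Both *longfin* libraries were far below both wildtype libraries, and the gap between genotypes was wider than the gap within either one. The mean was 1.05 ± 0.105 CPM in *longfin* tips and 10.3 ± 1.88 CPM in wildtype tips (SD, n = 2 each). The log2 fold change was -3.28 ± 0.26 (SE), with a 95% interval of -3.90 to -2.66, and edgeR's adjusted p was 0.00673. From the summed reads alone, 44 in *longfin* and 432 in wildtype libraries, the scaled ratio of *longfin* to wildtype was 0.104, and its exact conditional interval at 95% ran over 0.0743 to 0.142, which covers counting error only.

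The fold of *usp2b* moved little when a library was left out. With 1 library in a genotype, that library is assumed to vary like the 2 of the other genotype, and the number of genes called over the whole table was 3 and 1 without *longfin* heterozygous replicate 1 and replicate 2, against 74 with all 4 libraries. Without *longfin* heterozygous replicate 1 its log2 fold change was -3.39 with an adjusted p of 0.0622 in edgeR's test, and without *longfin* heterozygous replicate 2 it was -3.19 with an adjusted p of 0.0728. Without either wildtype library it passed, at -3.09 and -3.46, and it also passed under each of the 8 other settings tried, DESeq2 and limma voom among them.

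USP2 had 158 and 147 reads in *longfin* libraries against 253 and 322 reads in wildtype libraries. As CPM this was 7.11 and 7.56 in *longfin* tips against 13.7 and 13.4 in wildtype tips. Its *longfin* values also lay below its wildtype values without overlap, by a smaller factor than those of *usp2b*. The log2 fold change was -0.89 ± 0.14 (SE), with a 95% interval of -1.23 to -0.55 and an unadjusted p of 0.000476, and its adjusted p of 0.0741 in edgeR's test missed the threshold. It passed in 4 of 12 other settings, which were library size only (adjusted p = 0.0374), no low count filter (0.0495), DESeq2 (0.0262) and the fit with the replicate number as a block (0.00243). With any 1 library left out the adjusted p lay between 0.129 and 0.395.

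**Figure D2:**
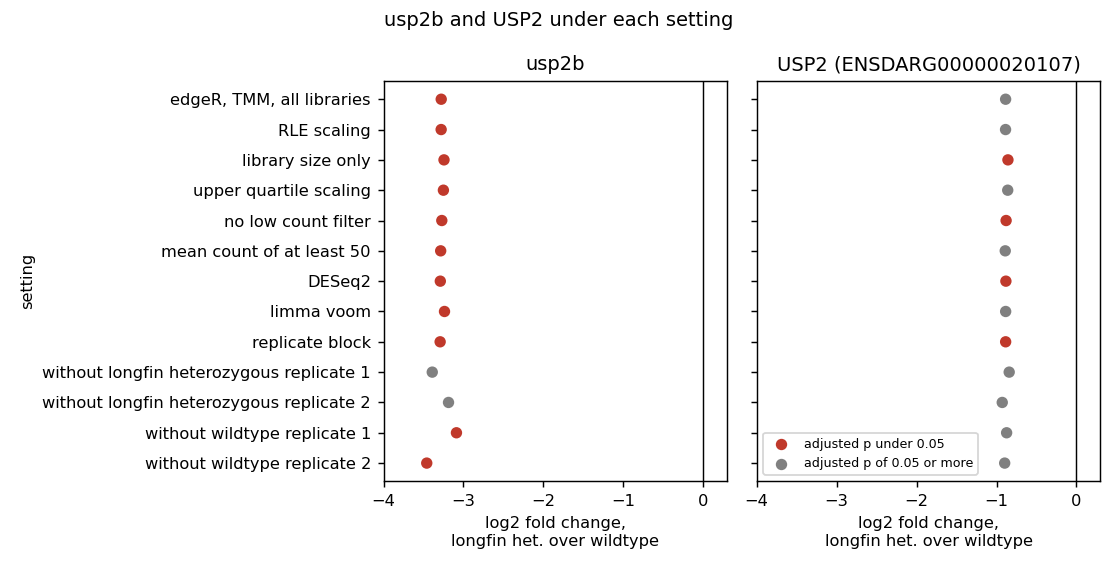
Log2 fold change of longfin heterozygous over wildtype (x axis) for *usp2b* and USP2 (ENSDARG00000020107) under the main test and 12 alternatives (y axis), in red where the adjusted p was under 0.05 and grey otherwise. The *usp2b* values stay between -3.46 and -3.09 and those of USP2 between -0.93 and -0.84, while whether they pass depends on the setting.

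The ratio of the reads of *usp2b* to those of USP2 within a library does not depend on how libraries are scaled. It was 0.158 and 0.129 in *longfin* libraries against 0.854 and 0.671 in wildtype libraries. *usp2b* thus supplied 13.7% (95% exact Clopper-Pearson interval 9.04 to 19.5) and 11.4% (7.03 to 17.3) of the reads of the pair in *longfin* libraries, against 46.1% (41.5 to 50.7) and 40.1% (36.0 to 44.4) in wildtype libraries. The intervals cover counting error only, and the shares are of reads, not of molecules, since the lengths of the transcripts were not used. The fold of *usp2b* was the larger of the pair, and the read share shifted in the same direction in both *longfin* libraries, but 2 libraries against 2 are too few for an exact permutation test of the ratio to reach 0.05.

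**Figure D3:**
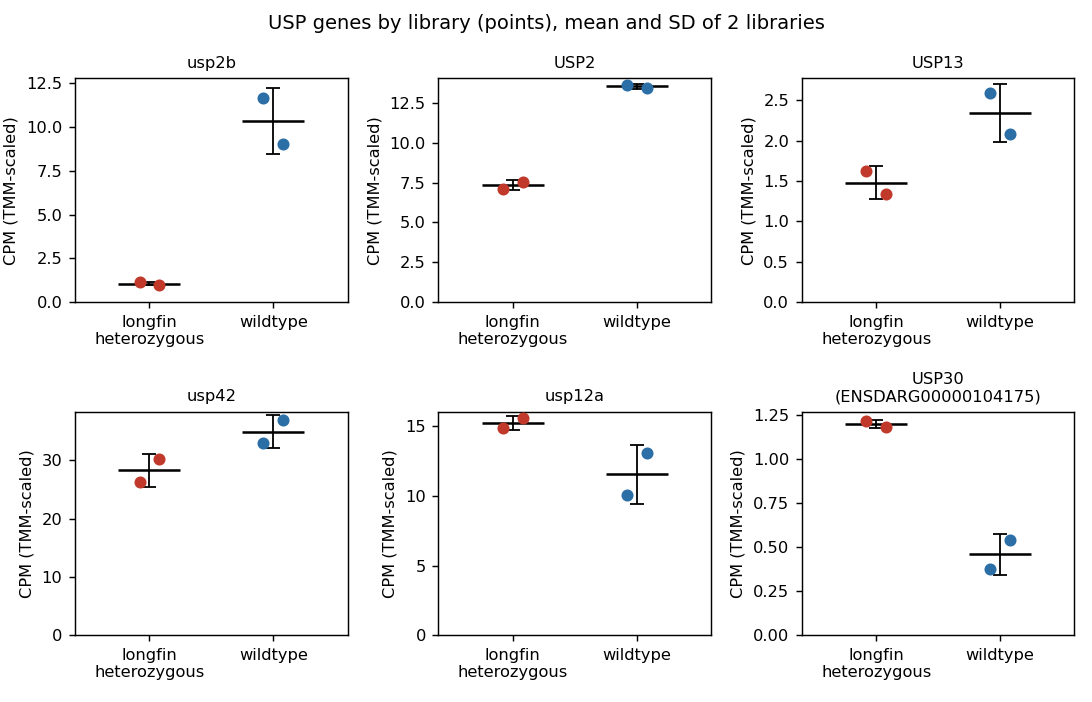
CPM (y axis) of 6 USP genes in each library (points), with the mean and SD of the 2 libraries of a genotype, longfin heterozygous in red and wildtype in blue. The 6 were chosen by an unadjusted p under 0.05 in edgeR's test or a log2 fold change above 0.5 in size. That choice favours genotypes that do not overlap, as in every panel here, against 39.8% of all tested genes. *usp2b* averages 1.05 CPM in longfin tips and 10.3 CPM in wildtype tips, and USP2 averages 7.33 CPM in longfin tips and 13.6 CPM in wildtype tips.

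In pooled tissue, fewer cells of a type and less RNA per cell cannot be told apart. Summed marker levels of some cell types also differed between the genotypes. The 5 epidermal markers (*krt5*, *krt4*, *krt91*, TP63 and *cdh1*) summed to 16670 and 18241 CPM in *longfin* tips against 18555 and 21722 CPM in wildtype tips. The 7 genes of the distal mesenchyme and actinotrichia list summed to 16843 and 14892 CPM in *longfin* tips against 13651 and 12410 CPM in wildtype tips. The largest part of each sum came from a single gene. *krt5* had 9094 and 10021 CPM in *longfin* tips against 9217 and 11854 CPM in wildtype tips, and its genotypes overlapped. *and1* had 11487 and 10260 CPM in *longfin* tips against 8859 and 8332 CPM in wildtype tips. TP63 in the epidermal list and FGF20 (ENSDARG00000007356) in the distal list went against these sums, with log2 fold changes of 0.05 and -0.06. Among macrophage and neutrophil markers, 3 genes were matched, *lyz* was at 0, and *csf1ra* and *ptprc* gave a sum of 41.8 and 48.4 CPM in *longfin* tips against 51.5 and 57.5 CPM in wildtype tips. None of the genes of these lists passed edgeR's adjusted threshold, against 0.403% of all tested genes. At an unadjusted p under 0.05 in edgeR, 3 of the 7 distal genes were higher, against 3.65% of all tested genes. In the same test 1 of the 5 epidermal genes was lower, against 5.82% of all tested genes. The part of these shifts in the fall of *usp2b* was not tested.

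Enzymes that act on free ubiquitin chains and at the proteasome were represented by 3 members. USP5, which takes apart unanchored polyubiquitin chains, had 189 and 202 CPM in *longfin* tips against 165 and 182 CPM in wildtype tips. Its log2 fold change was 0.17, with a 95% interval of -0.05 to 0.38. USP13, a paralogue of USP5, had 36 and 26 reads in *longfin* libraries against 48 and 50 in wildtype libraries, or 1.62 and 1.34 CPM in *longfin* against 2.59 and 2.09 CPM in wildtype tips. The values did not overlap and lay lower in *longfin*, but the log2 fold change of -0.64 had an interval of -1.37 to 0.09 and an edgeR adjusted p of 0.601. USP14, which binds the proteasome and trims chains from its substrates, stood at -0.08 with an interval of -0.29 to 0.12. None of the 3 passed or had an unadjusted p under 0.05.

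Of 13 members with roles in chromatin and DNA repair, 10 were tested and 0 passed in edgeR or DESeq2. In edgeR 0.403% of all tested genes passed, so 0 of 10 says little. USP7, which acts on p53 and MDM2, had 140.2 and 139.9 CPM in *longfin* tips against 135 and 128 CPM in wildtype tips. These values did not overlap, yet the log2 fold change was only 0.09 with an interval of -0.10 to 0.28. Its paralogue USP47, linked to base excision repair, stood at 0.20 with an interval of -0.01 to 0.42. USP1, which acts on the Fanconi anaemia protein FANCD2 and on PCNA, stood at 0.08, and USP22, the deubiquitinase of the SAGA chromatin complex, at 0.02. USP3, an enzyme for ubiquitinated histone H2A, was at 0.23, USP49, an enzyme for histone H2B, at 0.15 and USP44, known from the spindle checkpoint, at -0.11. USP45, which acts on the repair nuclease subunit ERCC1, was at 0.00108 and USP48 at -0.05.

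The member of this group with the lowest p was *usp42*, a p53-linked deubiquitinase gene. It had 26.3 and 30.2 CPM in *longfin* tips against 33.0 and 36.9 CPM in wildtype tips. Both *longfin* values lay below both wildtype values. The log2 fold change was -0.31 ± 0.12 (SE), with an unadjusted p of 0.0369, which edgeR's adjustment took to 0.48. The 3 untested genes of the group had almost no reads. USP28 had 0 and 3 reads in *longfin* and 0 and 1 in wildtype libraries, *usp16* had 0 and 0 in *longfin* and 3 and 0 in wildtype libraries, and *usp21* had 0 in all 4. A count of 0 over a genotype allows up to 3 reads, or 0.0720 CPM over the *longfin* libraries and 0.0707 CPM over the wildtype libraries, which again covers counting error only.

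The group of membrane traffic and of enzymes activated by the WD-repeat protein WDR48 held 8 members as listed here. USP1, also activated by WDR48, was listed with chromatin and DNA repair instead. USP8, which works on receptors at endosomes, had 78.2 and 88.0 CPM in *longfin* tips against 74.2 and 66.0 CPM in wildtype tips. Its log2 fold change was 0.25 with an interval of -0.00313 to 0.50 and an unadjusted p of 0.0522. USP10, a partner of the stress granule proteins G3BP1 and G3BP2, had 116 and 121 CPM in *longfin* tips against 109 and 112 CPM in wildtype tips, and stood at 0.09. USP32 stood at -0.02, and the paralogues USP20 and USP33, which act on internalised receptors, at 0.09 and -0.04.

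The WDR48-activated enzymes of this group are encoded by *usp12a*, *usp12b* and USP46. *usp12a* had 14.9 and 15.6 CPM in *longfin* tips against 10.1 and 13.1 CPM in wildtype tips. The *longfin* values were higher without overlap, with wildtype replicate 1 the lowest of the 4. The log2 fold change was 0.39 ± 0.16 (SE), the unadjusted p 0.0473 and the adjusted p 0.516 in edgeR's test. Its other copy *usp12b* stood at 0.02 with an interval of -0.22 to 0.27. USP46 was low in every library at 1.70 to 2.34 CPM, with a log2 fold change of -0.14 and a wide interval of -0.84 to 0.57. The intervals of *usp12a* and *usp12b* overlapped, and the difference between them was not tested.

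Large and signalling enzymes had log2 fold changes between -0.09 and 0.13. USP9Y, the symbol given here to a zebrafish counterpart of the human USP9X and USP9Y genes, had 344 and 346 CPM in *longfin* tips against 335 and 316 CPM in wildtype tips. The log2 fold change was 0.08 with an interval of -0.10 to 0.27. USP34, which acts on axin in the Wnt pathway, stood at 0.04, *usp24* at 0.13, USP25 at -0.09 and USP37, an enzyme for cyclin A, at 0.05. *usp4* and *usp11*, paralogues linked in mammals to the Tgf-beta receptor, stood at 0.03 and 0.02. *usp4* had 112 and 118 CPM in *longfin* tips against 107 and 118 CPM in wildtype tips, and its genotypes overlapped. The *longfin* values of USP9Y and *usp24* were higher without overlap, as were those of 20.0% of all tested genes. None of these 7 genes had an unadjusted p under 0.05 in edgeR.

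Among enzymes of organelles, splicing and the nucleolus, USP30 encodes a mitochondrial outer membrane enzyme that opposes mitophagy and is the symbol of 2 counted genes. ENSDARG00000104175 had 27 and 23 reads in *longfin* libraries against 7 and 13 in wildtype libraries. As CPM this was 1.22 and 1.18 in *longfin* against 0.378 and 0.543 in wildtype tips. The *longfin* values were higher without overlap, on few reads. The log2 fold change was 1.34 ± 0.43 (SE), with an interval of 0.32 to 2.36, an unadjusted p of 0.0173 and, in edgeR's test, an adjusted p of 0.39. The other gene, ENSDARG00000056842, had 27 and 32 reads in *longfin* libraries against 26 and 25 in wildtype libraries and a log2 fold change of 0.23 with an interval of -0.63 to 1.1. How alike the 2 genes are in sequence was not examined. USP36, a nucleolar enzyme, stood at 0.15, USP19, which has a form anchored in the endoplasmic reticulum, at 0.05, USP38 at 0.02, and USP39, a splicing factor without protease activity, at -0.08.

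Of 8 less described members, 7 were tested. *usp54a* had 123 and 126 CPM in *longfin* tips against 124 and 101 CPM in wildtype tips, with a log2 fold change of 0.15. Wildtype replicate 2 was the low one, and the genotypes overlapped. USP53 (ENSDARG00000078615), whose human product lies at tight junctions, stood at 0.14, while the second gene with that symbol, ENSDARG00000076499, had 1 and 0 reads in *longfin* and 2 and 0 in wildtype libraries and was not tested. USP54, *usp43b*, USP43 and *usp40* lay between 0.05 and 0.08, and USP31 stood at -0.12. *usp6nl*, the Rab regulator gene, stood at 0.09. None of the 8 tested genes of this paragraph had an unadjusted p under 0.05.

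**Figure D4:**
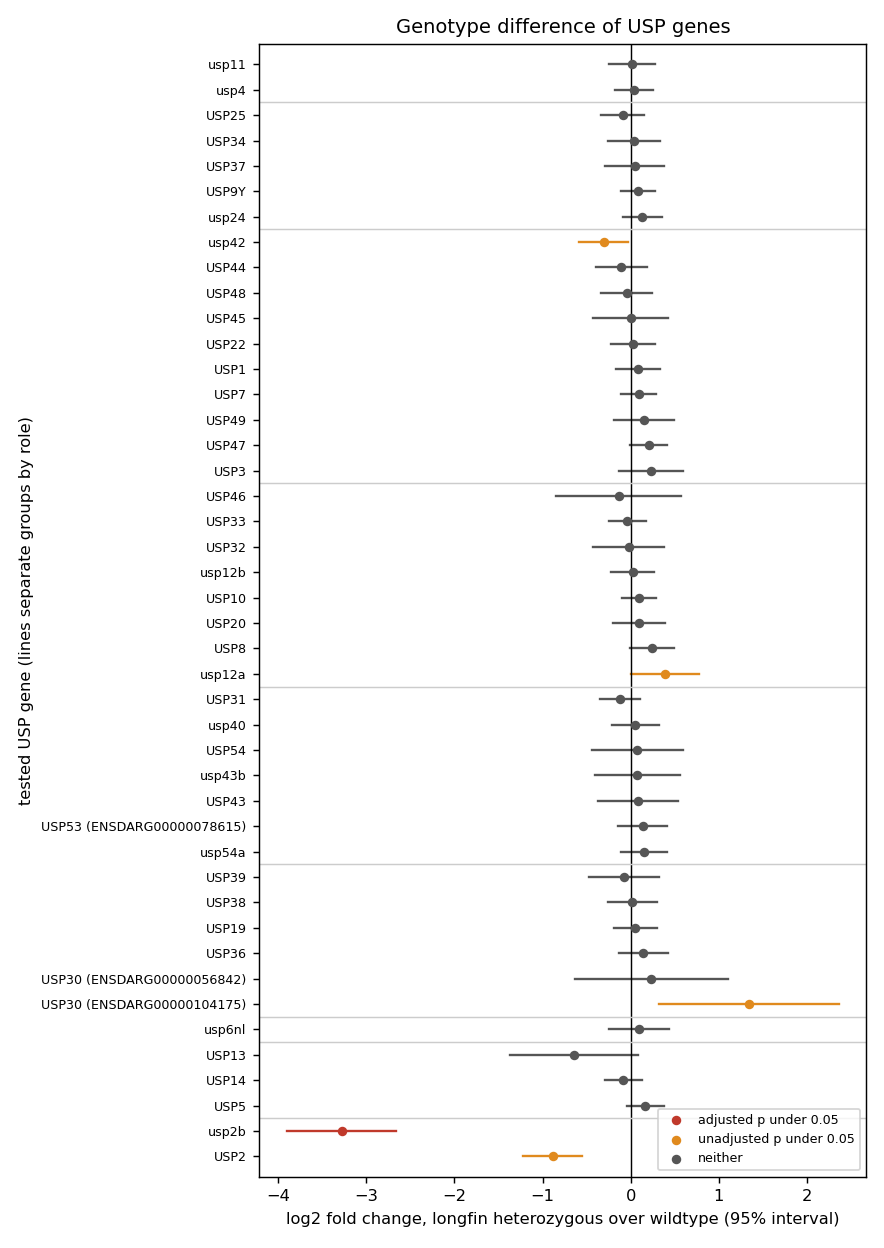
Log2 fold change of longfin heterozygous over wildtype with its 95% interval (x axis) for the 44 tested USP genes (y axis), grouped by role. Red marks *usp2b*, which passed the adjusted threshold, orange the 4 other genes with an unadjusted p under 0.05, and grey the remaining 39, whose intervals include 0.

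Across the 44 tested members, 5 had an unadjusted p under 0.05, or 11.4%, against 9.47% of all tested genes. Lower in *longfin* were *usp2b*, USP2 and *usp42* (6.82% against 5.82% of all tested genes), and higher were *usp12a* and USP30 (ENSDARG00000104175, 4.55% against 3.65%). The genotypes did not overlap in 19 members, 43.2% against 39.8% of all tested genes, with 12 higher (27.3% against 20.0%) and 7 lower (15.9% against 19.8%). A log2 fold change above 0.5 in size was found in 4 members, 9.09% against 11.4% of all tested genes. These shares lay near the background, and nothing is read from them. Positive fold changes were more frequent among members, with 31 of 44 above 0 against 49.7% of all tested genes. The shift was small, with a median of 0.05 against -0.00148 for all tested genes. The members' median lay above that of all genes under each of the 12 alternatives, lowest at 0.03 without *longfin* heterozygous replicate 2. These alternatives reuse the same libraries and are not independent support. Genes of a library are not independent replicates, and the shift itself was not tested.

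At the median, members also differed less between libraries of 1 genotype than tested genes did. The 2 sets were not matched for expression level, and the part of read depth in this was not tested. The median difference between the 2 *longfin* libraries was 0.09 on the log2 scale for the 44 members and 0.18 for 18343 tested genes with reads in every library. Between the 2 wildtype libraries it was 0.15 for members and 0.18 for those genes. The widest gap between *longfin* libraries was that of USP45, with 13.6 and 19.3 CPM, and the widest between wildtype libraries that of *usp43b*, with 40.6 and 27.0 CPM. The 44 members summed to 2196 and 2269 CPM in *longfin* tips against 2183 and 2098 CPM in wildtype tips.

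**Figure D5:**
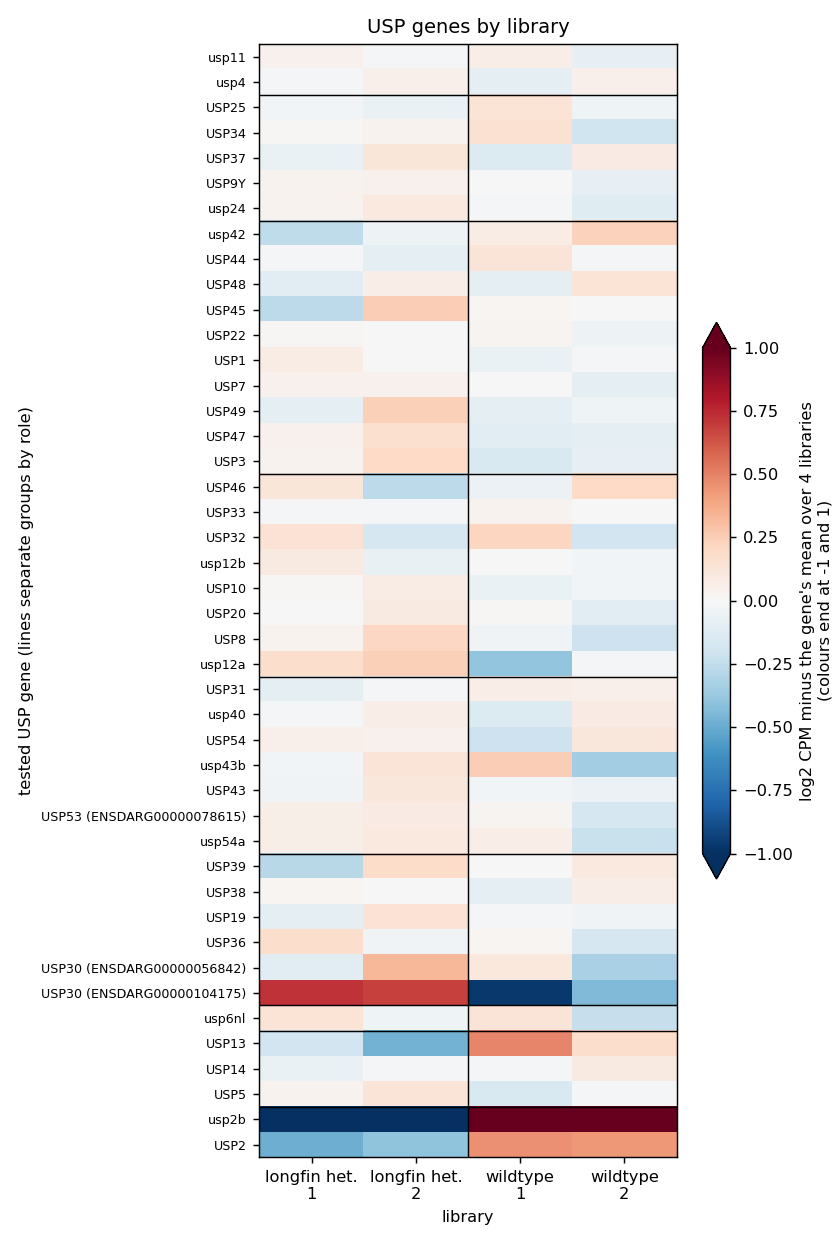
Log2 CPM of each of the 44 tested USP genes (rows, grouped by role) in each library (columns), as the difference from the gene's mean over the 4 libraries, with colours ending at -1 and 1. *usp2b* and USP2 are low in both longfin libraries, USP30 (ENSDARG00000104175) is high in both, and most rows are pale.

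Genes for partners and substrates of USP enzymes were also read. The 22 listed included those for WDR48, WDR20, the SAGA subunits ATXN7 and ENY2, the USP8 partners STAM and STAM2, and PSMD2 of the proteasome. Of the 22, 0 passed edgeR's adjusted threshold, against 0.403% of all tested genes. In DESeq2 0 of them passed, where 289 of 26176 genes did. With so few genes called over the whole table, 0 adjusted calls among 22 genes say little. At an unadjusted p under 0.05 in edgeR there were 0 of the 22, against 9.47% of all tested genes. Their log2 fold changes lay between -0.21 and 0.28 with a median of 0.05. G3BP1 and PCNA, those of highest CPM, stood at 0.10 and -0.05. Of 11 ubiquitin and E1 enzyme genes, 0 passed in edgeR or DESeq2, which says as little beside the same shares of all genes. At an unadjusted p under 0.05 in edgeR, 2 of the 11 were higher, against 3.65% of all tested genes, and both were polyubiquitin genes. The median log2 fold change of the 11 was 0.02. *ubb* (ENSDARG00000093313) had 467 and 459 CPM in *longfin* tips against 374 and 375 CPM in wildtype tips, and stood at 0.31 with an edgeR adjusted p of 0.236. UBB (ENSDARG00000002369) stood at 0.22 with an adjusted p of 0.484. The polyubiquitin gene *ubc* went the other way, with 647 and 594 CPM in *longfin* tips against 665 and 650 CPM in wildtype tips. Its values did not overlap, and its log2 fold change was -0.08 with an interval of -0.28 to 0.11.

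Deubiquitinases outside the symbol rule, most of them of other families, were read for comparison. They were 35 tested genes of the OTU, UCH, JAMM, Josephin and MINDY families and CYLD. Of these, 1 fell and 0 rose in edgeR's test over all genes, against 0.294% and 0.109% of all tested genes, and 1 gene says little against these. Their median log2 fold change was 0.01. The gene that fell was TNFAIP3, which encodes A20, a deubiquitinase and ligase that limits NF-kB signalling. It had 28.3 and 24.9 CPM in *longfin* tips against 48.7 and 44.7 CPM in wildtype tips. The values did not overlap, and the log2 fold change was -0.81 ± 0.11 (SE) with an adjusted p of 0.0478. That call was lost when *longfin* heterozygous replicate 1 (adjusted p = 0.2), *longfin* heterozygous replicate 2 (0.284) or wildtype replicate 1 (0.114) was left out, with limma voom (0.0606) and with genes under a mean count of 50 removed (0.0534), while the log2 fold change stayed between -0.91 and -0.72 over all 12 alternatives. At an unadjusted p under 0.05, *otulinb*, whose product cuts linear chains, was at 0.39, and ZRANB1 (ENSDARG00000060257) at 0.34.

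Because mammalian USP2 is a clock output gene, 31 circadian clock genes were also read, and their median log2 fold change was -0.05. BHLHE40, a clock repressor gene, rose to 109 and 103 CPM in *longfin* tips, against 60.8 and 65.5 CPM in wildtype tips. Its log2 fold change was 0.75 ± 0.09 (SE), and its edgeR adjusted p was 0.0322. It was the single clock gene past the threshold, and its adjusted p was 0.235, 0.193 and 0.0898 without *longfin* heterozygous replicate 1, *longfin* heterozygous replicate 2 and wildtype replicate 1, while the log2 fold change stayed between 0.70 and 0.80 over all 12 alternatives. Of all tested genes 0.403% passed, 0.109% as higher, and 1 clock gene says little against these. At an unadjusted p under 0.05 in edgeR, 6 clock genes were lower, 19.4% of the 31 against 5.82% of all tested genes. They were *hlfa*, HLF, NFIL3, *nfil3-5*, *nfil3-6* and CLOCK (ENSDARG00000011703). No PER, CRY, BMAL1, dbp or tef gene was among them, and the other CLOCK gene (ENSDARG00000003631) stood at -0.01. Of the 6, *hlfa*, a PAR-bZIP factor gene, was the nearest to the threshold at -1.19 with an adjusted p of 0.0506. *hlfa* had 14.9 and 14.6 CPM in *longfin* tips against 39.1 and 28.4 CPM in wildtype tips.

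Some clock genes differed more by replicate number than by genotype. PER1 (ENSDARG00000056885), a core repressor gene of the clock, had 32.6 and 4.01 CPM in *longfin* replicates 1 and 2 against 36.6 and 4.72 CPM in wildtype replicates 1 and 2. NR1D1, a nuclear receptor gene of the clock, had 26.6 and 4.73 CPM in *longfin* tips against 27.8 and 5.64 CPM in wildtype tips. In both genes replicate 1 was far above replicate 2 in each genotype. The largest fold of the list, -1.63, was that of *nr1d2a*, with 78.9 and 26.2 CPM in *longfin* tips against 234 and 93.3 CPM in wildtype tips. Both *longfin* values lay below both wildtype values, replicate 1 was the higher in each genotype, and the unadjusted p was 0.145. With the replicate number as a block its log2 fold change was -1.69 and its edgeR adjusted p 6.11e-08, and 6 clock genes passed in that fit. Over the whole table that fit called 794 genes, against 74 in the main test. With 4 libraries and a block, few degrees of freedom remain per gene, and the p-values lean on the spread shared across genes. The labels do not say that the replicate number marks a shared batch.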

How the data were processed

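RNA-seq counts of 4 libraries were used, 2 per genotype, grouped and numbered by the sample titles. A Kapa stranded mRNA kit was used per the labels. TopHat2, HTSeq and GRCz11 (danRer11) are named in the submitters' processing notes as what the authors used. Versions, annotation release and strand setting are not stated there or in the labels, so overlapping antisense genes may not be told apart. Each deposited file gives raw counts of reads for every Ensembl gene, without normalization. The HTSeq classes and an unnamed row equal to the sum of the genes stayed out. The HTSeq class of alignments that were not unique made up 28.7 to 41.9% of the counts of genes and classes together in a library. A read with several alignments may count more than once there, so this is not a share of reads.

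Symbols came from a table that names 29178 of the 31901 IDs. Counts were analysed in R 4.3.3 with edgeR 4.0.16, using filterByExpr (minimum count 10, minimum total 15), TMM, glmQLFit (legacy off, robust on) and a two-sided glmQLFTest of genotype with no replicate term, Benjamini-Hochberg adjusted over 18366 genes, threshold 0.05. The test was checked on simulated data. Those data gave every gene the same dispersion and held no shared replicate effect, so the check does not cover such features of these libraries. A standard error is the log2 fold change over the square root of its F statistic, and intervals use the fit's degrees of freedom. CPM values are TMM-scaled. DESeq2 1.42.0 and limma 3.58.1 served as alternatives, beside other scalings and filters, a replicate block and leaving out each library.

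The members, gene lists, tests and alternatives were chosen with earlier results of these data known, among them the fall of *usp2b*. Full values were given for members past the threshold, both genes named usp2, members at an unadjusted p under 0.05, the 6 of highest CPM and those with a log2 fold change past 0.5. In other lists, members past the threshold, else those of lowest p, else the 2 of highest CPM were named; partners listed by name, PER1, NR1D1, *nr1d2a*, USP8 and other members given in full beyond this were chosen after their values were seen. No table of sequences was used here.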

Additional observations from a re-analysis of the deposited data

How the results depend on the processing

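The count of genes past the threshold moved from 74 to 219 with library size only, 130 with no low count filter, 289 with DESeq2 and 794 with the replicate block, and lay between 1 and 163 with a library left out (3 and 1 when *longfin* heterozygous replicate 1 or 2 was dropped and 163 when wildtype replicate 2 was). The USP count of 1 became 2, adding USP2, with library size only, no low count filter, DESeq2 and the replicate block, and lay between 0 and 1 with a library left out. *usp2b* stayed between -3.46 and -3.09 and did not pass without either *longfin* library (adjusted p 0.0622 and 0.0728), where 1 library was left in that genotype. Other deubiquitinases numbered 0 with a mean count of at least 50 or limma voom, 2 with the replicate block and 0 to 1 with a library left out. Ubiquitin and E1 genes numbered 1 with the replicate block. Clock genes numbered 3 with library size only, 2 with upper quartile scaling, 3 with no low count filter, 4 with DESeq2, 6 with the replicate block and 0 to 3 with a library left out. The cause of these moves was not tested.

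The replicate numbers are not said to mark a shared batch. Same-numbered libraries deviated together with r = 0.28 across 18366 genes, which are not independent replicates, and the block changed no USP call other than that of USP2. Its 6 clock genes were BHLHE40, *hlfa*, HLF, NFIL3, *nfil3-5* and *nr1d2a*, the last at -1.69 (edgeR adjusted p = 6.11e-08). Few degrees of freedom remain per gene in that fit.

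Over the 43 other tested members, 475 of 512 values kept their side of the threshold and direction. The 4 gains of a call were those of USP2, and the 33 changes of sign were all in members that did not pass. USP45 stood at -0.00295 with a mean count of at least 50, -0.0276 with limma voom and -0.0105 with the replicate block, and USP32 at 0.0159 with library size only and 0.00512 with upper quartile scaling. With a library left out, the lowest and highest log2 fold changes were -0.177 and 0.00312 for USP25, -0.13 and 0.22 for USP34, -0.0555 and 0.166 for USP37, -0.0190 and 0.0647 for USP22, -0.27 and 0.24 for USP45, -0.153 and 0.0736 for USP48, -0.0297 and 0.312 for USP49, -0.0548 and 0.0940 for *usp11*, -0.0352 and 0.106 for *usp4*, -0.0611 and 0.101 for *usp12b*, -0.21 and 0.19 for USP32, -0.345 and 0.0332 for USP46, -0.0475 and 0.169 for *usp40*, -0.19 and 0.40 for *usp43b*, -0.0637 and 0.257 for USP54, -0.0658 and 0.166 for USP19, -0.0543 and 0.0994 for USP38, -0.32 and 0.14 for USP39, and -0.0769 and 0.281 for *usp6nl*. Depth limits USP13, USP46 and both USP30 genes most, with 7 to 56 reads per library.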
